A study of Mus musculus with 9 samples.

Results

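Wnt signalling genes were followed across 3 groups of sorted mouse cells: the Wnt ligands, their Frizzled (Fzd) and Lrp receptors, and their antagonists. Members were all genes with a single symbol starting with Wnt, Fzd, Sfrp or Dkk and a digit, joined by Nkd1, Nkd2, Axin1, Axin2, Kremen1, Wif1, Lrp5 and Lrp6. Kremen2 was the 1 of 9 genes sought by full name that the probe annotation did not list. This gave 46 of the 18194 genes measured: 19 ligands, 12 receptors and co-receptors, 9 secreted antagonists and 5 intracellular inhibitors or Kremen receptors. The remaining member was Fzd10os, a transcript from the strand opposite Fzd10 that shares its symbol and is not a receptor. The rule rests on gene symbols, though it was set with earlier results of these data known.

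Wnt ligands are secreted lipid-modified proteins that bind a Frizzled receptor on the cell surface. When Lrp5 or Lrp6 joins the complex, the Axin-based machinery that degrades beta-catenin is held in check, and beta-catenin enters the nucleus to act with TCF/LEF factors. Other ligands, Wnt5a among them, mainly act through Frizzleds without beta-catenin. Sfrp proteins and Wif1 bind the ligands, Dkk proteins block Lrp5 and Lrp6, Kremen proteins help Dkk proteins do so, and Nkd proteins bind Dishevelled inside the cell. In the thymus, Wnt ligands made by epithelial cells and their neighbours are known to act on epithelial cells, where they influence Foxn1, the regulator of thymic epithelial identity.

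RNA was measured on 9 arrays, 3 for each of 3 groups that the sample titles call ZsG plus, ZsG minus mTEC and ZsG minus cTEC. All 3 groups were listed on the C57BL/6 background, with mice aged 8 to 20 weeks. The reporter was a transgene built in a bacterial artificial chromosome (BAC), with the green protein ZsGreen (ZsG) inserted at the start codon of Tslp, the gene of an epithelial cytokine. The labels do not tell transgenic samples from others, so it is taken that the title's ZsG plus or minus describes reporter signal in the sorted cells. cTEC and mTEC are the usual names of cortical and medullary thymic epithelial cells. The sort gates, the compartment from which ZsG plus cells came and the number of mice behind each sample are not stated in the sources used here. The cell type field reads keratinocytes for every sample, against the titles.

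Values are array intensities, a measure of brightness on a linear scale, from the brightest probe set of each gene. A level is the geometric mean over the 3 arrays of a group, and a difference is given in log2 units ± its standard error. Levels of different genes are not compared, since probe sets differ in brightness. Adjusted p-values come from limma with Benjamini-Hochberg adjustment over all 18194 genes, and a gene is called where this value is under 0.05. PheX and DapX, bacterial controls that should find no mouse RNA, read 3.77 to 341 over the 9 arrays with a median of 45.6. Without 1 of their 6 probe sets the highest reading was 150. A member at or under 341 on all arrays of a group is within the range of these controls there. The size of its differences that involve that group is not settled, also where this is not repeated below.

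Most marker genes lay where the titles put them. Of 6 cortical markers, 5 were lower in level than in ZsG minus cTEC, both in ZsG minus mTEC and in ZsG plus. Foxn1 was higher in both. Of 8 medullary markers, 7 were higher than in ZsG minus cTEC in ZsG minus mTEC, all but Krt5. In ZsG plus 6 were higher, all but Krt14 and Tnfrsf11a. Prss16 and Aire, genes of cortical and medullary epithelium, had levels of 48742 and 1973 in ZsG minus cTEC, 2963 and 19854 in ZsG minus mTEC, and 1173 and 16990 in ZsG plus. The ZsG plus arrays had lower median intensities, 230 to 316 against 366 to 424 on the others, and higher Gapdh 3' to 5' ratios, 6.71 to 10.6 against 4.55 to 5.97. Among ZsG plus arrays the median SD of a member was 1.24, with 0.66 among ZsG minus mTEC and 0.71 among ZsG minus cTEC arrays, close to the 1.30, 0.63 and 0.61 of all genes. The part of the lower median and the higher ratio in the differences below was not tested. In bulk RNA of this kind, fewer cells of a type and less RNA per cell cannot be told apart.

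**Figure D1:**
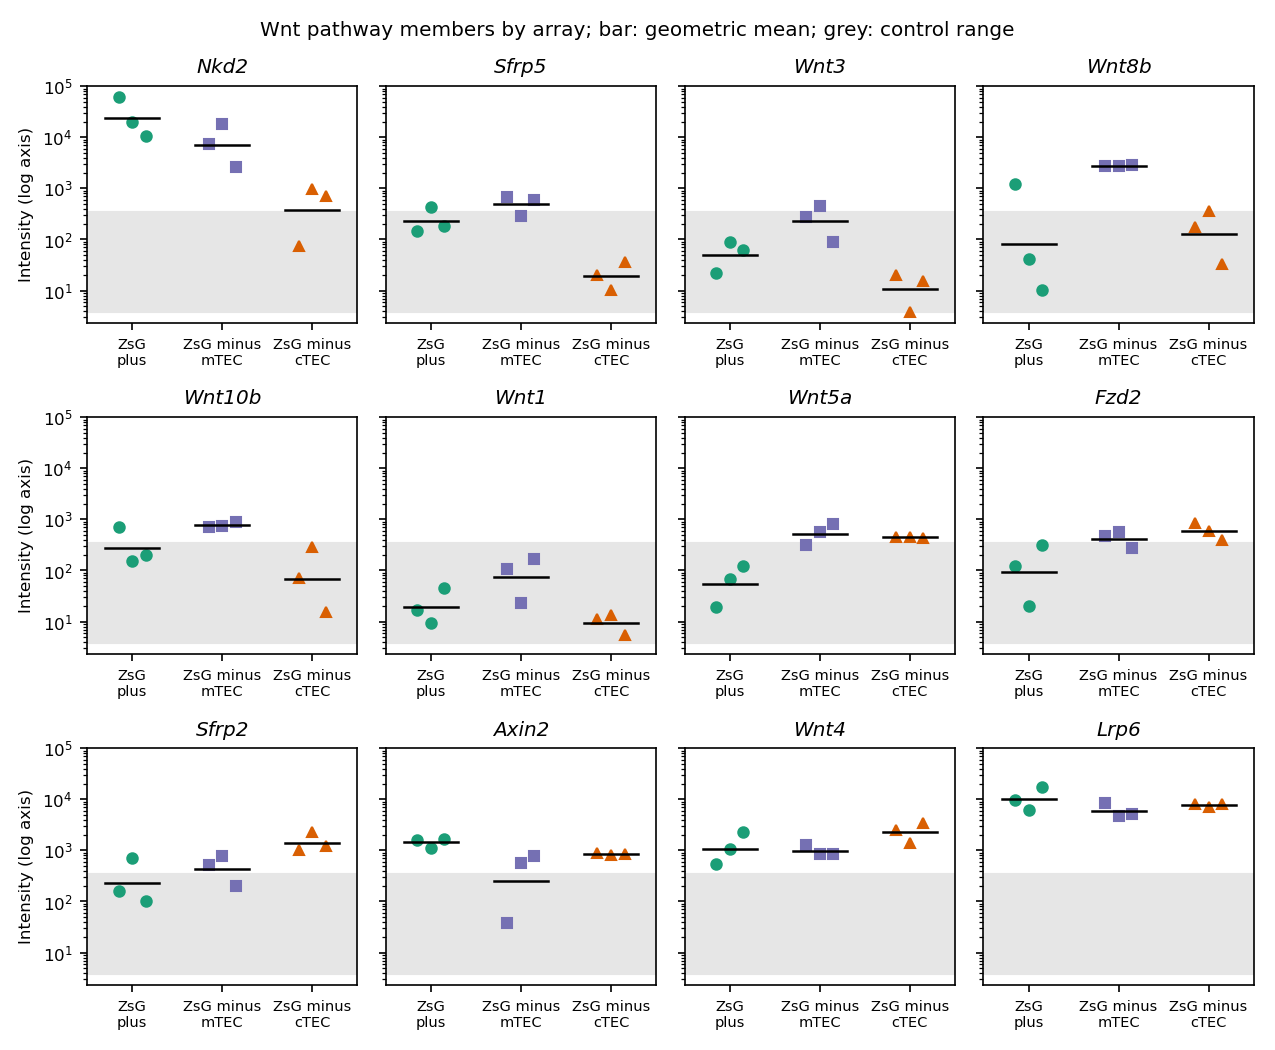
Intensity (log axis) of 12 members on each array of the 3 groups; points are single arrays, bars are geometric means and the grey band marks the bacterial controls, 3.77 to 341. Nkd2 and Sfrp5 lie higher on every ZsG plus and ZsG minus mTEC array than on any ZsG minus cTEC array, and Wnt5a lies lower on every ZsG plus array than on any other.

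Of the 46 members, 2 passed the test in at least 1 comparison, and both encode inhibitors. Nkd2 and Sfrp5 passed as higher in ZsG plus when set against ZsG minus cTEC, where 1.74% of all genes were called, 0.599% higher and 1.14% lower. Sfrp5 was also higher in ZsG minus mTEC than in ZsG minus cTEC, where 0.627% of all genes were called, 0.528% higher and 0.0989% lower. For ZsG plus against ZsG minus mTEC, limma called 0 members, where 0.220% of all genes were called, 0.0165% higher and 0.203% lower. In that comparison 1 member (2.17%) had an unadjusted p under 0.05 as higher and 6 (13.0%) as lower, where all genes gave 3.20% and 10.2%. No ligand and no Frizzled or Lrp receptor was called in any of the 3 comparisons. With counts of 0 to 2 among 46 genes, no share is read as particular to the members. The lack of a call is not read as the lack of a difference. Nor is a call certain, as simulated arrays also gave calls for unchanged genes.

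Nkd2, a cytoplasmic protein that binds Dishevelled and dampens Wnt signals, had readings of 62149, 19586 and 10632 in ZsG plus. The ZsG minus mTEC arrays read 7295, 17960 and 2638, and the ZsG minus cTEC arrays 75.7, 981 and 699. Every ZsG plus and ZsG minus mTEC array was thus above every ZsG minus cTEC array, while those 2 groups overlapped each other. The level in ZsG plus was 62.9-fold that in ZsG minus cTEC, a difference of 5.98 ± 1.15 (limma adjusted p = 0.0417). In ZsG minus mTEC the level was 18.8-fold that in ZsG minus cTEC, a difference of 4.23 ± 1.15 that did not pass (limma adjusted p = 0.149). Between ZsG plus and ZsG minus mTEC the difference was 1.74 ± 1.15 (limma adjusted p = 0.530).

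The Nkd2 call did not outlast the loss of some arrays. Without ZsG plus replicate 1 the difference was 5.27 (limma adjusted p = 0.0580), and without ZsG minus cTEC replicate 1, 2 or 3 it was 4.83, 6.67 or 6.43 (limma adjusted p = 0.136, 0.108 and 0.0976), within a range of 0.0127 to 0.136 over all alternatives. Of the 3 other Nkd2 probe sets, which are dimmer, 1419465_at and 1457600_x_at differed by 3.59 and 2.44 in the same direction, and 1434275_at by −0.05. The mean of all 4 probe sets differed by 2.99 (limma adjusted p = 0.0439).

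Sfrp5, a secreted protein that binds Wnt ligands, had readings of 149, 425 and 181 in ZsG plus, while ZsG minus mTEC gave 689, 285 and 590. On the ZsG minus cTEC arrays it read 20.2, 10.3 and 36.6. All 3 ZsG minus cTEC readings lie within the range of the controls, and no reading of the other groups fell as low. The difference from ZsG minus cTEC was 3.52 ± 0.71 for ZsG plus (limma adjusted p = 0.0450) and 4.63 ± 0.71 for ZsG minus mTEC (limma adjusted p = 0.0387), of unsettled size. Between ZsG plus and ZsG minus mTEC it was −1.11 ± 0.71 (limma adjusted p = 0.518), with overlapping arrays.

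Both Sfrp5 calls depend on readings near the controls. With every value under 341 raised to that reading, the differences shrank to 0.11 and 0.60 (limma adjusted p = 1.00 and 0.429). Its other probe set, 1423023_at, differed by 0.11 and 1.00. The call between the ZsG minus groups was lost without any 1 of the 6 arrays (limma adjusted p = 0.0812 to 0.160, and 0.0037 to 0.429 over all alternatives). The ZsG plus call was kept without ZsG plus replicate 1 and lost without each of the other 5 arrays (limma adjusted p = 0.0539 to 0.161, and 0.0324 to 1.00 over all alternatives).

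Among the 29 members with an upstream stretch, that of Dkk1, a Lrp5 and Lrp6 blocker, holds the TCF/LEF core most often. The stretches upstream of the called members are shown with that of Dkk1. Each is the 250 bases before the start of the gene on its own strand, from RefSeq on GRCm38.p6, with matches to CTTTGA or its reverse complement TCAAAG in capitals. Nkd2 is read from chr13:73847632-73847881, Sfrp5 from chr19:42202253-42202502 and Dkk1 from chr19:30549497-30549746, all on the minus strand.
Nkd2: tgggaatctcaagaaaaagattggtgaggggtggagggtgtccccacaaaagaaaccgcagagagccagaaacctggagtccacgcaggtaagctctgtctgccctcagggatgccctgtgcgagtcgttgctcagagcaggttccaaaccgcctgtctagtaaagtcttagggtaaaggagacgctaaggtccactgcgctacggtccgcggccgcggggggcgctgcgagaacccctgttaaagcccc
Sfrp5: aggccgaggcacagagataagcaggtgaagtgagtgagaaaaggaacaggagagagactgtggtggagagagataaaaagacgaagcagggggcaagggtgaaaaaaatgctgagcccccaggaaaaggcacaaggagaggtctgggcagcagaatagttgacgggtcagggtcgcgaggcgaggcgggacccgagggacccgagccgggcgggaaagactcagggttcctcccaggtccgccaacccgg
Dkk1: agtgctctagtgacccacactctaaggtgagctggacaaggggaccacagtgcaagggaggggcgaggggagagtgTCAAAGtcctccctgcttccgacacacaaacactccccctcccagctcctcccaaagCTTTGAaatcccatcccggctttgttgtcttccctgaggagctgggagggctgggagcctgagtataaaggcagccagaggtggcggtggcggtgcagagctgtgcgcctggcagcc
The Nkd2 and Sfrp5 windows hold no match, while that of Dkk1 holds 2, starting 174 and 117 bases before the gene. Windows were found for 29 members, 32 windows in all, and 4 of these (12.5%) held a match: those of Dkk1, Fzd1, Wnt11 and Wnt5b. Of all 32851 windows of the same length, 13.8% held one. A match is only a run of letters, and these counts say nothing about binding.

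Among the other secreted antagonists the probe sets of Sfrp1 gave different pictures. Sfrp1, a ligand-binding antagonist common in stroma and epithelia, gave 1633, 2213 and 306 for ZsG plus with its probe set of highest mean log2 intensity, 1428136_at. ZsG minus mTEC gave 948, 1881 and 1084 and ZsG minus cTEC 1743, 1702 and 967, so all 3 groups overlapped. The difference was −0.27 ± 0.80 from ZsG minus mTEC and −0.46 ± 0.80 from ZsG minus cTEC (limma adjusted p = 0.907 and 0.790).

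The 4 other Sfrp1 probe sets lay lower in ZsG plus. On 1448395_at the ZsG plus arrays read 823, 52.6 and 41.6, against 4778, 2895 and 3675 for ZsG minus mTEC and 2009, 3498 and 3815 for ZsG minus cTEC. No ZsG plus array reached the lowest array of the other groups there. The differences of the 4 probe sets were −2.36 to −5.60 from ZsG minus mTEC and −2.22 to −4.89 from ZsG minus cTEC. None passed when every probe set was tested singly, with limma adjusted p-values no lower than that of 1448395_at, 0.103 and 0.0684. The mean of all 5 probe sets passed against ZsG minus cTEC, at −3.01 (limma adjusted p = 0.0439 there, 0.0439 to 0.996 over all alternatives). Without ZsG plus replicate 3 the probe set used here turned to 0.42.

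**Figure D2:**
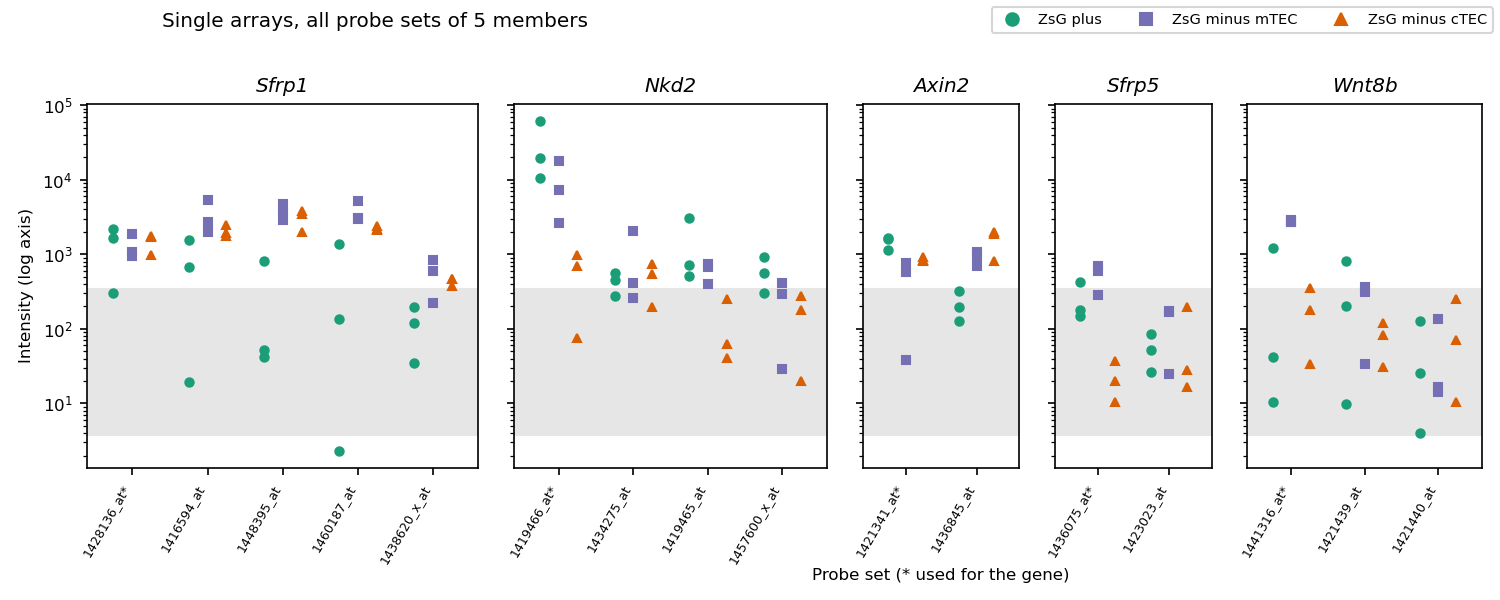
Intensity (log axis) of every probe set of Sfrp1, Nkd2, Axin2, Sfrp5 and Wnt8b on each array; points are single arrays, coloured by group, the starred probe set is the one used for the gene and the grey band is the control range of 3.77 to 341. The 4 unstarred Sfrp1 probe sets lie lower in ZsG plus by 2.22 to 5.60, and the 2 Axin2 probe sets go opposite ways.

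Sfrp2, another ligand-binding antagonist, read 159, 711 and 102 in ZsG plus, against 509, 782 and 200 in ZsG minus mTEC and 1020, 2243 and 1231 in ZsG minus cTEC. All ZsG minus cTEC arrays were above all others. The differences from ZsG minus cTEC were −2.64 ± 0.85 for ZsG plus and −1.71 ± 0.85 for ZsG minus mTEC (limma adjusted p = 0.148 and 0.471). The first passed without ZsG plus replicate 2, at −3.47 (limma adjusted p = 0.0436, and 0.0436 to 0.366 over all alternatives).

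Dkk1 read 155, 1182 and 176 in ZsG plus, with 605, 996 and 437 in ZsG minus mTEC and 204, 136 and 6.89 in ZsG minus cTEC. Only the ZsG minus groups were fully separated, by 3.48 ± 1.30 (limma adjusted p = 0.301), of unsettled size. The ZsG minus cTEC readings lie within the range of the controls. On the other Dkk1 probe set the difference was 2.27, with overlapping arrays. Dkk3, a relative of Dkk1 whose part in Wnt signalling is less clear, went the other way, at 206, 355 and 513 in ZsG minus mTEC and 1475, 585 and 1528 in ZsG minus cTEC. It read 562, 323 and 686 in ZsG plus, overlapping both. The Dkk3 difference between the ZsG minus groups was −1.71 ± 0.65 (limma adjusted p = 0.307). It was −0.08 on the other Dkk3 probe set, 1448669_at, with overlapping arrays. Wif1 and Sfrp4 were within the range of the controls on all 9 arrays, and Dkk2 and Dkk4 differed by −3.24 to 2.61 over the comparisons, with no call.

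The summed intensities of fibroblast and thymocyte markers also lay highest in ZsG minus cTEC, the group of highest level for Sfrp2 and Dkk3. The summed intensity of 9 fibroblast and mesenchyme markers was 49018 to 69312 on the ZsG minus cTEC arrays, against 8212 to 12962 for ZsG minus mTEC and 8719 to 31823 for ZsG plus. Dcn, a matrix gene of fibroblasts, was the only 1 of the 9 called, as higher in ZsG minus cTEC than in either other group. Pdgfrb went the opposite way, with levels of 287 in ZsG minus cTEC, 693 in ZsG minus mTEC and 383 in ZsG plus. Lum was within the range of the controls in ZsG plus and Lum and Pdgfra were so for ZsG minus mTEC, but none of the 9 for ZsG minus cTEC. The summed intensity of 9 thymocyte markers was 41937 to 56987 for ZsG minus cTEC, with 5646 to 9268 for ZsG minus mTEC and 7045 to 7391 for ZsG plus. The part of these cells in the differences from ZsG minus cTEC, those of Nkd2 and Sfrp5 included, was not tested.

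**Figure D3:**
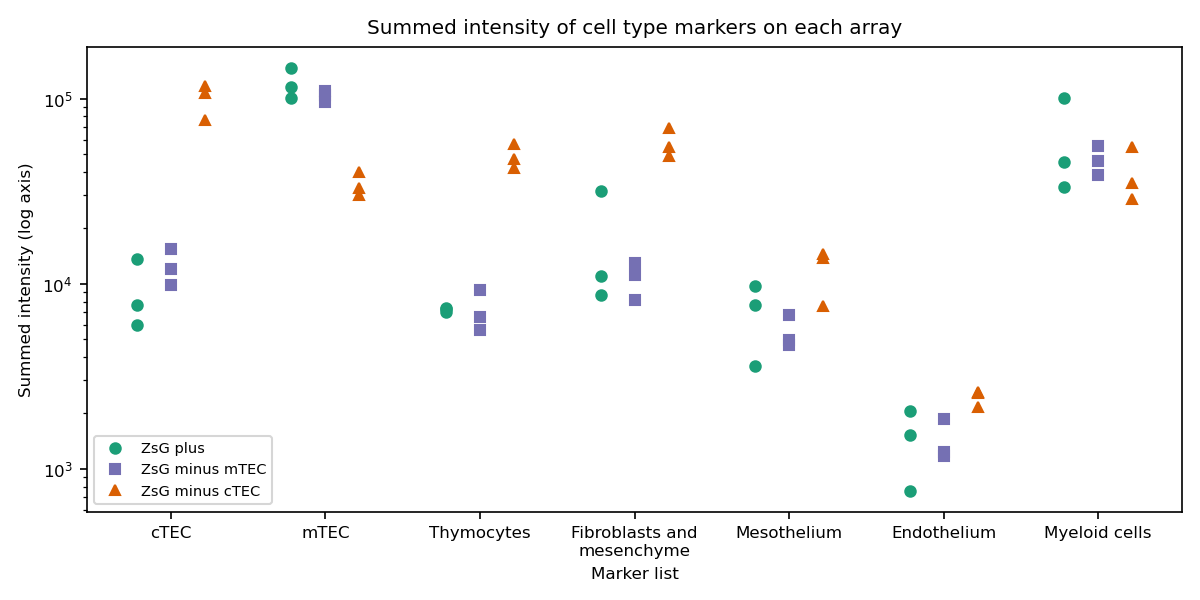
Summed intensity (log axis) of the markers of 7 cell types on each array; points are single arrays, coloured by group. The thymocyte and the fibroblast and mesenchyme markers sum to 41937 or more on every ZsG minus cTEC array and to 31823 or less on every other.

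Among the intracellular inhibitors, Axin2 gave 2 opposed readings. Axin2, a scaffold of beta-catenin degradation that beta-catenin itself induces, read 1627, 1128 and 1638 in ZsG plus. ZsG minus mTEC gave 38.5, 575 and 763, and ZsG minus cTEC 909, 809 and 850. All ZsG plus arrays were above all others, and the difference from ZsG minus mTEC was 2.49 ± 1.02 (limma adjusted p = 0.344). On its other probe set, 1436845_at, all ZsG plus arrays were below all others. They read 319, 198 and 126 there, against 938, 694 and 1080 for ZsG minus mTEC and 1899, 807 and 1981 for ZsG minus cTEC. The differences on it were −2.15 and −2.86, so no direction is given for Axin2.

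Axin1, the scaffold found in most cells, read 751, 1203 and 4014 in ZsG plus. ZsG minus mTEC gave 982, 781 and 1168 and ZsG minus cTEC 1429, 1676 and 1097, with overlap throughout on the probe set used. On 1426966_at, ZsG plus read 582, 268 and 587 and ZsG minus mTEC 323, 408 and 786. All were below the 1366, 1239 and 1181 of ZsG minus cTEC on it. These differences from ZsG minus cTEC were −1.48 and −1.42, with no call. Nkd1, the relative of Nkd2, read 277, 267 and 208 in ZsG plus, with 204, 445 and 336 in ZsG minus mTEC and 484, 618 and 634 in ZsG minus cTEC. The ZsG plus readings of Nkd1 lie within the range of the controls. Its difference between ZsG plus and ZsG minus cTEC was −1.21 ± 0.53 (limma adjusted p = 0.261), of unsettled size. This is the direction opposite to Nkd2, and the mean of the 4 Nkd1 probe sets turned to 0.27. With values under 341 raised to that reading Nkd1 passed, at −0.75 (limma adjusted p = 0.0438, and 0.0438 to 0.825 over all alternatives). Kremen1, a receptor for Dkk proteins, read 978, 567 and 125 in ZsG plus, against 597, 1124 and 3012 in ZsG minus mTEC and 3013, 1383 and 1126 in ZsG minus cTEC. Every ZsG plus array was below every ZsG minus cTEC array for Kremen1, a difference of −2.03 ± 0.92 (limma adjusted p = 0.274).

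Many ligands read near the controls. Of the 19, 11 were within the range of the controls on all ZsG plus arrays, 8 on all ZsG minus mTEC arrays and 11 on all ZsG minus cTEC arrays, each on the probe set used. Wnt1, Wnt10a, Wnt16, Wnt5b, Wnt7a, Wnt7b and Wnt8a were so on all 9 arrays, and only Wnt4 was above the controls on all 9. A dimmer Wnt7a probe set, 1447647_at, read 385 on ZsG plus replicate 3.

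Wnt4, a ligand of thymic epithelium that is known to act on Foxn1, read 531, 1045 and 2264 in ZsG plus, with 1250, 851 and 869 in ZsG minus mTEC and 2524, 1407 and 3488 in ZsG minus cTEC. The ZsG minus cTEC arrays were above all ZsG minus mTEC arrays, while ZsG plus overlapped both. The difference between the ZsG minus groups was −1.25 ± 0.67 (limma adjusted p = 0.524), and 0.53 on the other Wnt4 probe set. Foxn1 had levels of 2471 in ZsG plus, 2838 for ZsG minus mTEC and 1523 for ZsG minus cTEC, and was not called in any comparison (limma adjusted p = 0.617 to 0.922).

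Wnt5a, the prototype of ligands that act without beta-catenin, lay lower on all ZsG plus arrays than on any other array. It read 19.5, 69.1 and 123 in ZsG plus, against 312, 557 and 824 in ZsG minus mTEC and 454, 454 and 433 in ZsG minus cTEC. All 3 ZsG plus readings lie within the range of the controls. The differences were −3.25 ± 0.75 and −3.03 ± 0.75 (limma adjusted p = 0.129 and 0.0793), neither called. Without ZsG plus replicate 3 the second passed, at −3.60 (limma adjusted p = 0.0433, and 0.0433 to 0.636 over all alternatives). Its 3 other probe sets differed by −2.15 to −0.10 from ZsG minus mTEC and by −0.86 to 0.90 from ZsG minus cTEC.

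Several ligands lay highest in ZsG minus mTEC. Wnt8b, a ligand best known from the developing brain, read 2729, 2710 and 2915 there, against 180, 356 and 33.4 in ZsG minus cTEC. In ZsG plus it read 1217, 41.6 and 10.4, a spread that covered the ZsG minus cTEC range and stayed below ZsG minus mTEC. The difference between ZsG plus and ZsG minus mTEC was −5.11 ± 1.57 and that between the ZsG minus groups 4.43 ± 1.57 (limma adjusted p = 0.221 and 0.272). The first passed without ZsG plus replicate 1, at −7.07 (limma adjusted p = 0.0347, and 0.0347 to 0.476 over all alternatives). The other Wnt8b probe sets, 1421439_at and 1421440_at, did not separate these groups, with differences between the ZsG minus groups of 1.22 and −0.84.

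Wnt3, a ligand of the beta-catenin branch, read 277, 461 and 91.3 in ZsG minus mTEC, 22.2, 87.8 and 61.7 in ZsG plus, and 20.5, 3.80 and 15.2 in ZsG minus cTEC. The 3 groups did not overlap, but most of these readings lie within the range of the controls. The difference between the ZsG minus groups was 4.42 ± 0.90 (limma adjusted p = 0.0733), and its only probe set carries the x_at suffix, which marks probes that may bind other transcripts. Wnt10b, another beta-catenin branch ligand, read 722, 738 and 872 in ZsG minus mTEC, 703, 154 and 201 in ZsG plus, and 71.3, 285 and 15.5 in ZsG minus cTEC. Its difference between the ZsG minus groups was 3.51 ± 1.03 (limma adjusted p = 0.177), of unsettled size. All ZsG minus cTEC readings of Wnt10b lie within the range of the controls.

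Wnt1, the founding member of the family, read 105, 23.6 and 168 in ZsG minus mTEC and 11.3, 13.3 and 5.59 in ZsG minus cTEC, and 16.6, 9.48 and 46.4 in ZsG plus. Wnt10a read 332, 22.6 and 39.2 in ZsG minus mTEC, 17.3, 12.3 and 13.0 in ZsG plus, and 18.8, 12.9 and 15.4 in ZsG minus cTEC. All readings of both lie within the range of the controls, and the differences between the ZsG minus groups were 2.98 ± 0.89 and 2.10 ± 0.92 (limma adjusted p = 0.187 and 0.397). By the gene order of GRCm38.p6, 4 pairs of ligands are neighbours: Wnt10b and Wnt1, Wnt9b and Wnt3, Wnt3a and Wnt9a, and Wnt6 and Wnt10a. Between the ZsG minus groups the first pair differed by 3.51 and 2.98, the second by 0.35 and 4.42, the third by 0.26 and −0.90, and the last by 0.10 and 2.10.

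Wnt2b and Wnt9b, the remaining ligands with an unadjusted p under 0.05, were lower in level in ZsG plus on the probe set used. Wnt2b read 15.6, 404 and 60.9 in ZsG plus, with 682, 1109 and 238 in ZsG minus mTEC and 1143, 149 and 2157 in ZsG minus cTEC. Wnt9b read 48.7, 155 and 71.5 in ZsG plus, against 144, 242 and 479 in ZsG minus mTEC and 290, 107 and 257 in ZsG minus cTEC. The ZsG plus arrays overlapped the other groups for both genes. For Wnt9b all ZsG plus and ZsG minus cTEC readings lie within the range of the controls. Wnt2b differed by −3.30 ± 1.34 from ZsG minus cTEC, and Wnt9b by −1.65 ± 0.72 from ZsG minus mTEC (limma adjusted p = 0.228 and 0.364). The other Wnt9b probe set, 1451711_at, went the opposite way, at 1.49, and the mean of both differed by −0.08. Wnt11, a ligand known mainly from signalling without beta-catenin, read 922, 345 and 671 in ZsG plus, with 346, 430 and 537 in ZsG minus mTEC and 238, 446 and 424 in ZsG minus cTEC, with overlap throughout.

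Of the 12 receptors and co-receptors, limma called 0. Fzd1, Fzd5, Fzd6, Fzd7, Lrp5 and Lrp6 were above the controls on all 9 arrays, and Fzd4 and Fzd9 were within their range on all 9, on the probe sets used. A dimmer Fzd4 probe set, 1419301_at, read 614 on ZsG minus mTEC replicate 2. Lrp6, the main co-receptor of the beta-catenin branch, read 9719, 6070 and 17662 in ZsG plus, against 8508, 4797 and 5048 in ZsG minus mTEC and 8256, 7178 and 8044 in ZsG minus cTEC. Fzd5 read 2927, 14782 and 5809 in ZsG plus, with 6851, 5868 and 1905 in ZsG minus mTEC and 3093, 3003 and 2827 in ZsG minus cTEC. On the probe sets used, both overlapped in each comparison that involves ZsG plus, with differences of 0.38 to 1.09 (limma adjusted p = 0.469 to 0.763). On the other Lrp6 probe set, 1451022_at, ZsG plus read 849, 779 and 745, all below the 2273, 1721 and 985 of ZsG minus mTEC. That difference was −0.99, not called with every probe set tested singly (limma adjusted p = 0.486). The other Fzd5 probe set, 1422937_at, differed by −0.37 from ZsG minus mTEC and by −0.31 from ZsG minus cTEC. Fzd6 read 6162, 2200 and 4368 in ZsG plus, against 5087, 6194 and 5287 in ZsG minus mTEC and 3639, 2763 and 4281 in ZsG minus cTEC. Only the ZsG minus groups were separated for Fzd6 on the probe set used, by 0.65 ± 0.57 (limma adjusted p = 0.770). On 1448662_at this difference was −0.44. On 1458904_at ZsG plus read 28.5, 61.9 and 29.3, within the range of the controls, against 363, 456 and 579 in ZsG minus mTEC. That difference was −3.62, not called with every probe set tested singly (limma adjusted p = 0.0992).

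Fzd2 and Fzd3 were the Frizzleds with a lower reading in ZsG plus at an unadjusted p under 0.05. Fzd3, a receptor of planar polarity signalling, read 623, 538 and 279 in ZsG plus, with 1167, 644 and 1056 in ZsG minus mTEC and 1384, 1536 and 1319 in ZsG minus cTEC. The 3 groups did not overlap, and ZsG plus differed from ZsG minus cTEC by −1.63 ± 0.55 (limma adjusted p = 0.163). With every value under 341 raised to that reading it passed, at −1.54 (limma adjusted p = 0.0474, and 0.0474 to 0.366 over all alternatives). Of its 5 other probe sets, 4 differed in that direction and 1421157_at did not, at 0.34. Fzd2 read 121, 19.8 and 320 in ZsG plus, all within the range of the controls, 467, 574 and 270 in ZsG minus mTEC, and 856, 599 and 391 in ZsG minus cTEC. It differed by −2.68 ± 0.95 from ZsG minus cTEC and by −2.19 ± 0.95 from ZsG minus mTEC (limma adjusted p = 0.178 and 0.361). Its other probe sets differed from ZsG minus cTEC by −1.37 and 1.68.

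Fzd10 read 356, 179 and 2434 in ZsG plus, against 156, 102 and 189 in ZsG minus mTEC and 152, 167 and 81.8 in ZsG minus cTEC. All 6 ZsG minus readings lie within the range of the controls, and the difference of ZsG plus from ZsG minus cTEC was 2.08 ± 0.92 (limma adjusted p = 0.266). Without ZsG plus replicate 3 it was 0.99. The other Fzd10 probe set, 1455689_at, went the opposite way, at −1.46, and the mean of both differed by 0.31. Fzd10os read 1830, 49.5 and 965 in ZsG plus, with 1246, 1116 and 1662 in ZsG minus mTEC and 201, 474 and 220 in ZsG minus cTEC. Fzd8 read 954, 12.5 and 22.8 in ZsG plus, with 47.4, 515 and 136 in ZsG minus mTEC and 440, 442 and 744 in ZsG minus cTEC. With all arrays it differed by −3.02 ± 1.53 from ZsG minus cTEC (limma adjusted p = 0.325). Without ZsG plus replicate 1 it passed, at −4.96 (limma adjusted p = 0.0374, and 0.0374 to 1.00 over all alternatives). Both ZsG plus readings left lie within the range of the controls, so this size is unsettled. On the other Fzd8 probe set, 1445815_at, all readings lie within that range, with a difference of −0.75.

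**Figure D4:**
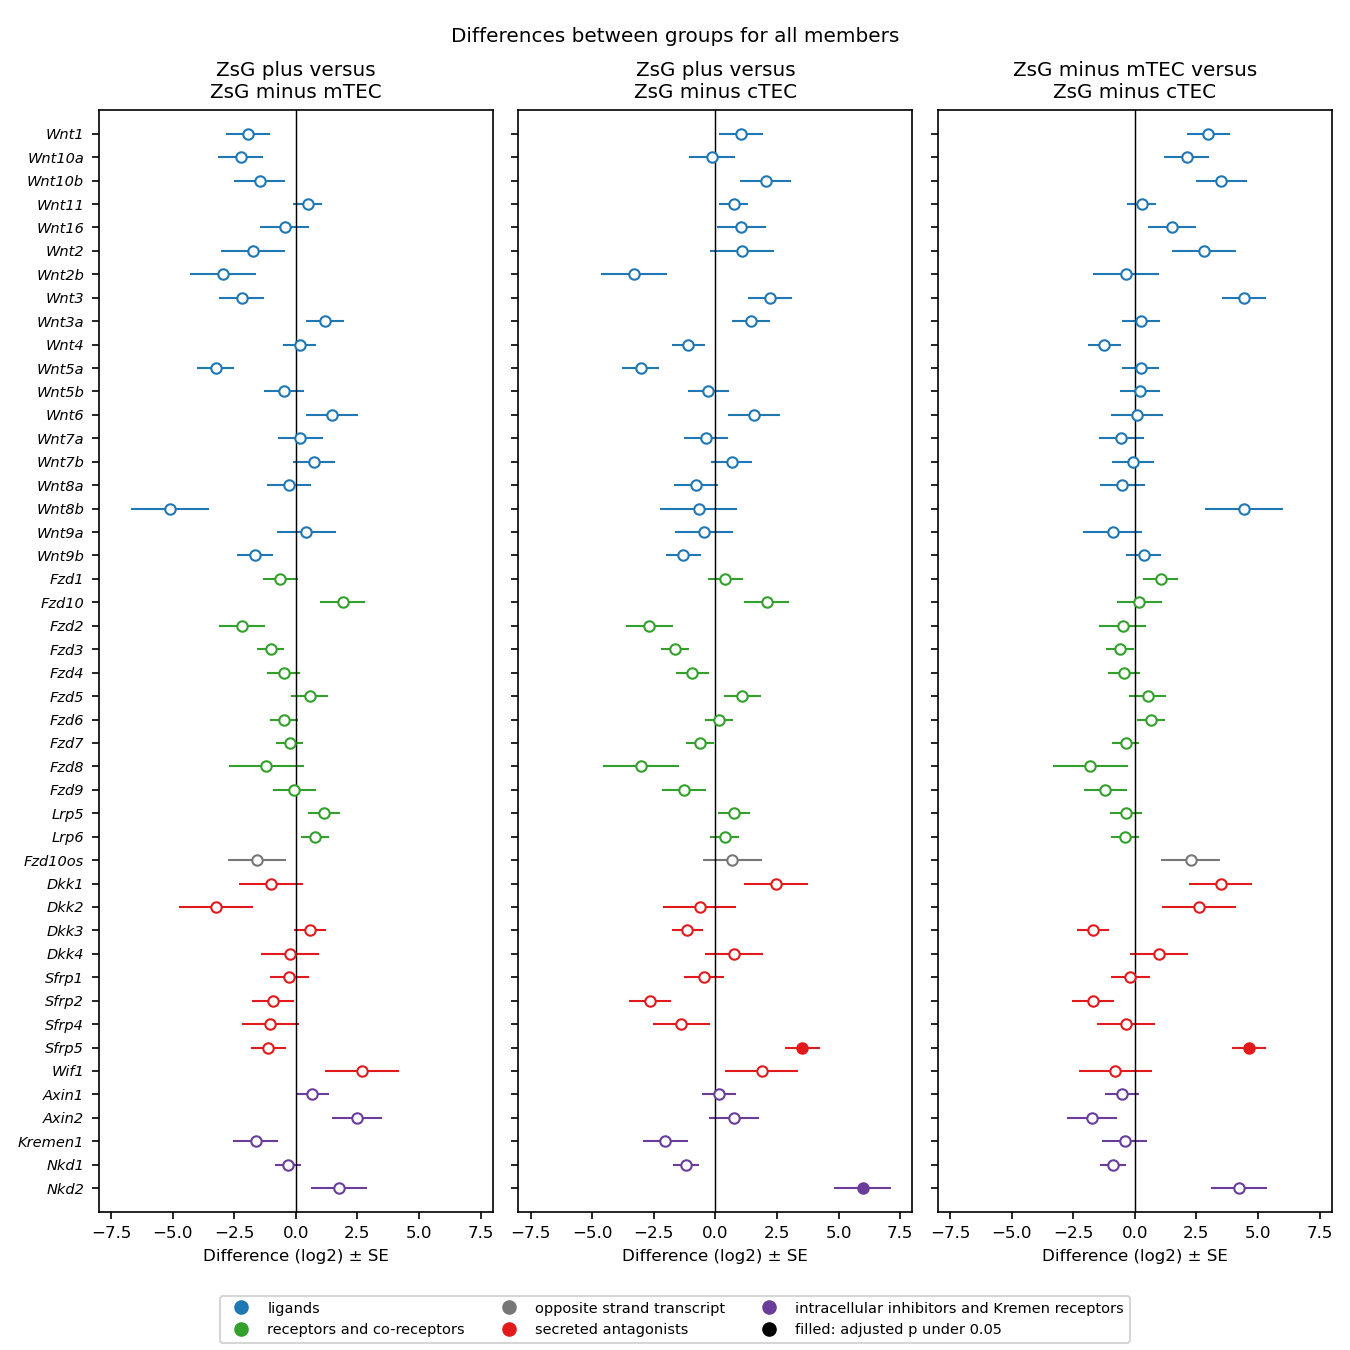
Difference (log2) ± SE of all 46 members in each of the 3 comparisons, ordered and coloured by role; filled points are called at an adjusted p under 0.05. The only filled points are Nkd2 and Sfrp5 against ZsG minus cTEC for ZsG plus, and Sfrp5 for ZsG minus mTEC.

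Over all 46 members, shares without overlap lay near those of all genes in the ZsG plus comparisons. Against ZsG minus mTEC, 2 members were higher and 6 lower on every ZsG plus array than on any array of the other group, or 4.35% and 13.0%, where all genes gave 5.77% and 12.3%. Against ZsG minus cTEC, 5 were higher and 7 lower in this sense, or 10.9% and 15.2%, where all genes gave 9.90% and 13.4%. In the second comparison an unadjusted p under 0.05 was reached by 4 members (8.70%) higher and 6 (13.0%) lower, where all genes gave 7.44% and 11.3%. The median difference of the members was −0.47 and 0.01 in these comparisons, and −0.33 and −0.14 for all genes. The comparisons share the ZsG plus arrays and are not independent.

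Between the ZsG minus groups, 13 members (28.3%) were higher on every ZsG minus mTEC array than on any ZsG minus cTEC array, where all genes gave 16.6%. They were Dkk1, Dkk2, Fzd1, Fzd6, Fzd10os, Nkd2, Sfrp5, Wnt1, Wnt3, Wnt8b, Wnt10a, Wnt10b and Wnt16. In the opposite direction there were 7 (15.2%), where all genes gave 11.8%: Axin2, Dkk3, Fzd3, Fzd4, Nkd1, Sfrp2 and Wnt4. An unadjusted p under 0.05 was reached by 8 members (17.4%) higher and 1 (2.17%) lower in ZsG minus mTEC, and by 8.40% and 3.90% of all genes. The median difference of the members was 0.01 against 0.09 for all genes, and their 5 ligands of unadjusted p under 0.05 were all higher in ZsG minus mTEC.

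The rest of the pathway was described with 5 lists, of which 3 had a called member, each lower in ZsG plus in the comparison with ZsG minus cTEC, where 1.14% of all genes were called lower. Of 18 genes of beta-catenin degradation and transduction, 1 was called: Csnk1e, a casein kinase that acts on Dishevelled, which read 74.9, 34.0 and 31.4 in ZsG plus, against 307, 276 and 246 in ZsG minus mTEC and 554, 326 and 738 in ZsG minus cTEC. The difference from ZsG minus cTEC was −3.57 ± 0.59 (limma adjusted p = 0.0288), of unsettled size. All readings of ZsG plus and ZsG minus mTEC, and the 326 of ZsG minus cTEC, lie within the range of the controls. Ctnnb1, which encodes beta-catenin, had levels of 84492, 53814 and 46123 in ZsG plus, ZsG minus mTEC and ZsG minus cTEC. Its difference between ZsG plus and ZsG minus cTEC was 0.87 ± 0.49 (limma adjusted p = 0.367), with no overlap of arrays. The list's median difference there was −0.18, against −0.14 for all genes.

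Of 13 measured TCF/LEF factors and nuclear partners, Pygo1, a co-activator of beta-catenin, was called. It read 11.4, 8.20 and 20.4 in ZsG plus, with 27.2, 128 and 48.1 in ZsG minus mTEC and 356, 187 and 144 in ZsG minus cTEC, and differed by −4.10 ± 0.73 from ZsG minus cTEC (limma adjusted p = 0.0358). All Pygo1 readings but the 356 of ZsG minus cTEC lie within the range of the controls, so the size is unsettled. Tcf7l2, a TCF factor, had levels of 8329, 5044 and 5279 in ZsG plus, ZsG minus mTEC and ZsG minus cTEC and was not called. The list's median difference was −0.13.

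Of 17 measured common targets of beta-catenin, Bmp4, a growth factor of the thymic stroma, was called. It read 7.83, 12.8 and 5.14 in ZsG plus, against 29.4, 89.1 and 12.2 in ZsG minus mTEC and 882, 196 and 352 in ZsG minus cTEC. All readings outside ZsG minus cTEC, and the 196 of ZsG minus cTEC, lie within the range of the controls. The difference of ZsG plus from ZsG minus cTEC was −5.62 ± 0.87 (limma adjusted p = 0.0258), of unsettled size. The 17 targets were split into 8 above and 9 below a difference of 0 there, with a median of −0.14, equal to that of all genes at this rounding. Myc and Jun, the brightest of the list, differed by 0.36 ± 0.55 and 0.42 ± 0.48 and were not called.

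Of 18 genes of Wnt release and secreted modulation and 14 of planar polarity signalling, limma called 0 in any comparison. In the first list 4 were lower in ZsG plus at an unadjusted p under 0.05 against ZsG minus mTEC and 3 against ZsG minus cTEC, where 10.2% and 11.3% of all genes were. Between the ZsG minus groups 3 of its genes were higher in ZsG minus mTEC, where 8.40% of all genes were, and in the opposite directions there were 0. In the second list 1 was lower in ZsG plus than in the ZsG minus mTEC group, and 2 were higher and 2 lower against ZsG minus cTEC, where all genes gave 7.44% and 11.3%. Between the ZsG minus groups 1 of its genes was lower in ZsG minus mTEC, where 3.90% of all genes were. Lgr4, a receptor for R-spondins that sustains Frizzled levels, read 643, 1227 and 780 in ZsG plus, with 3073, 3700 and 2177 in ZsG minus mTEC and 3164, 2575 and 2899 in ZsG minus cTEC. The ZsG plus arrays were below all others for Lgr4, by −1.78 ± 0.53 and −1.75 ± 0.53 (limma adjusted p = 0.207 and 0.128). Wls, which carries Wnt ligands to the cell surface, had levels of 1389, 1246 and 2221 in ZsG plus, ZsG minus mTEC and ZsG minus cTEC, with no call.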

How the data were processed

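RNA from 9 samples in 3 groups of 3, taken from the sample titles, was hybridised to Affymetrix arrays (Mouse Genome 430 2.0, by the probe annotation). Per the labels' protocols, DNase-treated RNA from spin columns was amplified from 5 ng by a WT-Ovation Pico kit. The authors deposited a linear intensity for each of 45101 probe sets. The software behind them is not given in the sources used here; detection calls were not analysed here. The mean of each array with 2% trimmed at each end was 1250, a scaling that leaves the median of an array free.

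Intensities were log2-transformed as they stood. Only the 34958 probe sets with 1 symbol were used, and for each of the 18194 genes the probe set of highest mean log2 intensity was kept; 29 members had several to choose from and 17 had 1. All 46 members matched the RefSeq gene table of GRCm38.p6, used for names, gene order and upstream sequence. The comparisons used limma 3.58.1 under R 4.3.3 (lmFit and eBayes, 1 coefficient per group over all 9 arrays, 6 residual and 3.28 prior degrees of freedom), two-sided, with Benjamini-Hochberg adjustment over all genes and a threshold of 0.05. The labels do not tie replicates to separate animals. The p-values then reflect the spread of these samples alone, possibly technical. Standard errors and p-values use 1 spread per gene, estimated over all 3 groups. ZsG plus arrays varied more, with a median SD of 1.30 over all genes, against 0.63 for ZsG minus mTEC and 0.61 for ZsG minus cTEC. Their spread thus also enters the comparison of the ZsG minus groups. The number of arrays limits the precision: exact permutation of 3 arrays against 3 cannot give a p below 0.1. No pair of arrays held identical values.

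Arrays with the same replicate number did not deviate together from their group means (r of -0.015 to 0.0132 over 9 pairs, 0 of them over 0.1), so the numbers were not taken to pair samples. The members and gene lists were chosen with earlier results of these data known. Values per array are given for members with an adjusted or unadjusted p under 0.05 in any comparison and for the 3 brightest of each role. Of each list, called genes and the 2 brightest were open to naming. Further genes were named for a role, as exceptions among markers or for a left-out array. They include Foxn1, Prss16, Aire, Dcn, Krt5, Krt14, Tnfrsf11a, Lgr4, Wls and Fzd8. The TCF/LEF core was searched on both strands in the 250 bases before a gene's start. The steps were tested on simulated arrays with log2 changes of 2, 4 and 6 in 50 genes each. For ZsG plus against ZsG minus mTEC, 6%, 36% and 72% were recovered, and 48 unchanged genes were called. Against ZsG minus cTEC it was 6%, 48% and 68%, with 65 unchanged genes called. Between the ZsG minus groups it was 2%, 24% and 70%, with 6. A call can thus fall on an unchanged gene, and most changes of 2 were missed. Figures were drawn with matplotlib 3.10.9. Alternatives covered the choice of probe set, dim-gene filter, scaling, offset, floor, array weights, replicate block, samples fitted and left-out arrays.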

Additional observations from a re-analysis of the deposited data

How the results depend on the processing

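The counts of called genes moved with the settings, and so did those of called members. Called members were 2 for ZsG plus against ZsG minus cTEC, and 1 with a filter at the 40th percentile, with an offset of 100, or with every probe set tested singly, an alternative chosen after seeing the data. They were 0 with array weights (6 of unadjusted p under 0.05), with the replicate block (7) and with only the 6 arrays of both groups (7), and 0 to 2 with 1 array left out. Between the ZsG minus groups 1 member was called, and 0 with the mean of probe sets, the filter, the replicate block or single probe sets, 5 with array weights (Nkd2, Sfrp5, Wnt1, Wnt3 and Wnt8b), and 0 with any 1 array left out. Against ZsG minus mTEC the ZsG plus count was 0 under each alternative but 1, the left-out ZsG plus replicate 1, which gave 1. Genes called between ZsG plus and ZsG minus mTEC numbered 40 (7.50% higher in ZsG plus), 15 after quantile normalization (26.7% higher), 3 with median-centred arrays (33.3% higher), 115 with the offset, 155 with a floor at the highest control reading, 0 with array weights, the replicate block or 6 arrays, and 0 to 230 with 1 array left out. Between ZsG plus and ZsG minus cTEC they numbered 317 (34.4% higher in ZsG plus), 265 after quantile normalization (53.2%), 271 with median-centred arrays (58.3%), 496 with the mean of probe sets, 504 with the filter, 816 with the offset, 653 with the floor, 37 with array weights (16.2%), 16 with the replicate block (18.8%), 0 with 6 arrays and 0 to 735 with 1 array left out. Between the ZsG minus groups they numbered 114 (84.2% higher in ZsG minus mTEC), 216 with the mean of probe sets, 176 with the filter, 178 after quantile normalization, 48 with median-centred arrays, 402 with the offset (74.1%), 388 with the floor (62.4%), 1220 with array weights (72.0%), 0 with the replicate block, 548 with 6 arrays (72.1%) and 0 to 0 with 1 array left out. Of the single-member values, 416 did not turn and kept their side of the threshold, 4 of them at exactly 0 with the floor (Wnt10a in 2 comparisons, Wnt1 and Wnt3), 29 lost a call, 12 gained one and 2 turned: Nkd1 with the mean of probe sets, to 0.27, and Sfrp1 without ZsG plus replicate 3, to 0.42 within a range of -1.01 to 0.42 over left-out arrays, both for ZsG plus against ZsG minus cTEC. The cause was not tested. Readings within the range of the bacterial controls limit what can be said of 11 members, which stayed there on all 9 arrays.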
